A study of Mus musculus with 40 samples.

Results

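The 6 metabotropic glutamate receptor genes Grm2, Grm3, Grm4, Grm5, Grm7 and Grm8 were taken by symbol from the 24060 gene symbols counted in the mouse striatum, and all 6 were found. RNA was measured in 40 libraries, in 10 groups of 4. In RiboTag mice, a ribosomal protein carrying an HA tag (RPL22-HA) was expressed from an adeno-associated virus (AAV) injected into the dorsal striatum, so that an anti-HA immunoprecipitation (IP) enriched RNA on the ribosomes of the targeted cells, and the input was the lysate of all striatal cells before IP. The study compared astrocytes with neurons, and WT mice with SAPAP3 KO mice, which lack the postsynaptic scaffold protein SAPAP3 (gene Dlgap3) and groom excessively.

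The groups were as follows. The astrocyte RiboTag mice were C57/BL6NTac and labelled Control. Their labels do not say which AAV these mice had, and the study's methods give the GfaABC1D promoter, which is active in astrocytes. The neuron RiboTag mice were C57/BL6NTac WT, and their AAV used the hSYN1 promoter, which is active in neurons in general and so does not separate striatal projection neurons from interneurons. The SAPAP3 cohort had C57/BL6J WT mice and C57/BL6J-Dlgap3 KO mice, each with IP and input, and neither the labels nor the methods name the cell type of its RiboTag AAV. That cohort was injected at an older age than the other RiboTag mice. Bulk striatum, with no RiboTag, was taken from WT and SAPAP3 KO mice, both labelled C57/BL6NTac, and the labels give 1 animal identifier to both WT library 1 and KO library 1. The KO is present in every cell from conception.

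Metabotropic glutamate receptors are G-protein-coupled receptors that slow or tune glutamate signalling. Group I, to which Grm5 belongs, couples to Gq and phospholipase C, is mostly postsynaptic and is tied to SAPAP and SHANK scaffolds through Homer proteins. Group II (Grm2 and Grm3) and group III (Grm4, Grm6, Grm7 and Grm8) couple to Gi/o, lower cyclic AMP and often sit on presynaptic terminals, where they reduce release. Grm3 is known as the group II receptor of astrocytes, whereas Grm2 is known from cortical and other excitatory neurons that project to the striatum. In bulk RNA, fewer cells of a type and less RNA per cell cannot be told apart.

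On GRCm38.p6, the build that mm10 is made from, RefSeq places Grm2 on the minus strand at chr9:106644534-106656109 and Grm3 on the minus strand at chr5:9485236-9725352. Grm5 is on the plus strand at chr7:87583981-88135063. The group III genes are Grm4 at chr17:27422387-27513826 (minus), Grm7 at chr6:110645349-111567230 (plus) and Grm8 at chr6:27275121-28135146 (minus). Counts were per gene, over exons, and exons of Grm7 overlap the antisense noncoding gene Gm20387, from which its reads cannot be told apart if counting ignored strand. No near-identical copy of a member was found, with 95% identity over 50% of the transcript as the limit.

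Grm2 and Grm3 are the group II pair, and the data below show them at very different levels, so their promoters are printed side by side. Each window runs from 250 bases before to 50 after the annotated start, 5′ to 3′, from RefSeq on GRCm38.p6, at chr9:106656060-106656359 for Grm2 and chr5:9725303-9725602 for Grm3, both minus strand. Capitals mark GC boxes (GGGCGG on either strand).
Grm2: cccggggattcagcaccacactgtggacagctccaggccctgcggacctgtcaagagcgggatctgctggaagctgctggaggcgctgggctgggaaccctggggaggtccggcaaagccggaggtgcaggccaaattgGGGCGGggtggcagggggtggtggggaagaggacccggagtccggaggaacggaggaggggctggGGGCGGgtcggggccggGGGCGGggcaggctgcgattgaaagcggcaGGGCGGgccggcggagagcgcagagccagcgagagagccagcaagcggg
Grm3: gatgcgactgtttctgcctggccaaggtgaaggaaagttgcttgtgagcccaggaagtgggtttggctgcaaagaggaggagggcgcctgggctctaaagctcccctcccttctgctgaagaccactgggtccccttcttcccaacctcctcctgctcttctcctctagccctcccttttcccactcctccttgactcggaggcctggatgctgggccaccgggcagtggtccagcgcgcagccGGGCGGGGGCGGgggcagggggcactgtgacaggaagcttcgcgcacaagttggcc
The Grm2 window held 4 GC boxes and 22 CpG sites at 72.0% GC, and the Grm3 window held 2 GC boxes, which lie end to end, and 11 CpG sites at 63.7% GC. Neither held a TATA box (TATAAA on either strand). Over 27025 promoters of this length, 35.9% held a GC box and 14.2% a TATA box, with a median of 7 CpG sites and 52.7% GC.

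Libraries held 23438112 to 84109800 counts. The targeted gene was checked in every genotype group before any comparison. Dlgap3 was at 514, 395, 376 and 399.9 CPM (a library's counts-per-million value) in the SAPAP3 cohort WT inputs and at 200.0, 189, 166.0 and 165.8 in the KO inputs. In IP it was at 212, 154, 157.0 and 179.0 CPM in WT and at 87.2, 68.3, 49.8 and 56.7 in KO. In bulk striatum it was at 376, 386, 338 and 232 CPM in WT and at 161, 153, 154 and 144 in KO. Every KO library was below every WT library of its kind, and the KO libraries still held Dlgap3 reads. Summed over 10 astrocyte markers, CPM rose from 1890 to 1983 in the astrocyte inputs to 11711 to 12061 in the IP, and from 2119 to 2372 to 9645 to 12888 in the SAPAP3 cohort WT mice, and in both cohorts 10 of 10 astrocyte markers were called higher in IP. The 10 neuron markers remained at 4620 to 4992 CPM in the astrocyte IP, against 7049 to 7363 in its input.

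**Figure D1:**
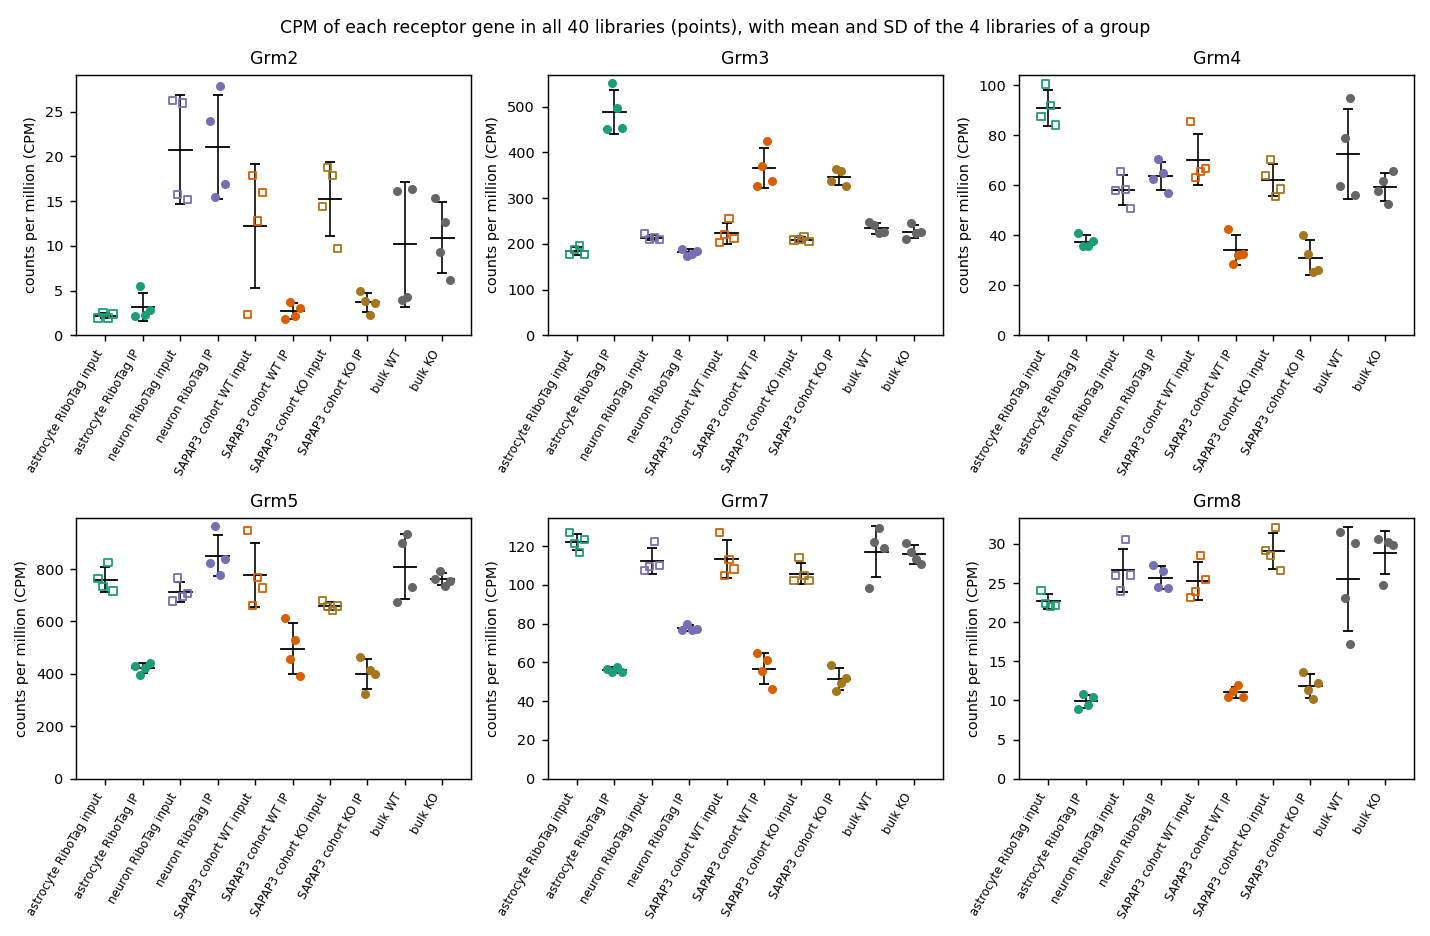
Counts-per-million values (CPM, vertical axis, from 0) of the 6 receptor genes in the 10 groups; each point is 1 library, open squares are inputs, filled circles are IP or bulk libraries, and lines with bars are the mean and SD of 4 libraries. Grm3 stands highest in the astrocyte RiboTag IP, at 450 to 551 CPM, and Grm2 spreads widely within the SAPAP3 cohort WT inputs and the bulk WT group.

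Grm5 and Grm3 made up most of the receptor message. Per length, as CPM divided by the exon length in kilobases (FPKM), Grm5 had a level of 85.2 ± 5.42 in the astrocyte RiboTag inputs (SD, n = 4), 79.8 ± 4.26 in the neuron RiboTag inputs and 90.8 ± 14.1 in bulk WT striatum. The corresponding Grm3 levels were 52.1 ± 2.57, 60.4 ± 1.78 and 66.3 ± 3.37 FPKM. Grm4 and Grm7 were lower, with levels in the astrocyte inputs of 12.4 ± 0.964 and 9.88 ± 0.345 FPKM, and Grm8 had 4.45 ± 0.186. Grm2, the other group II gene, had only 0.664 ± 0.0980 FPKM there and 6.25 ± 1.85 in the neuron inputs.

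Each gene's 10 groups were put in order of mean CPM, and most neighbours in that order overlapped in range. Grm3 ran from 488 ± 47.3 in the astrocyte IP, with no overlap with the next, through 365 ± 43.6 and 346 ± 18.1 in the SAPAP3 cohort WT and KO IP, to a set of bulk and input groups between 209 and 234. After a further gap came the astrocyte inputs at 184 ± 9.08 and the neuron IP at 181 ± 6.99, which overlapped.

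For Grm4, Grm5 and Grm8 there was 1 break, which set the astrocyte IP and both SAPAP3 cohort IP groups below the other 7 groups. Those 3 IP groups had mean levels of 31.1 to 37.5 CPM for Grm4, where the others had 58.1 to 90.9. For Grm5 they had 399 to 497 CPM, against 659 to 851, and for Grm8 9.88 to 11.9, against 22.7 to 29.1. Grm7 had the same 3 groups lowest, at 51.3 to 56.8 CPM, and the neuron IP alone at 77.6 ± 1.52, between them and the inputs and bulk groups at 106 to 122. Grm2 had no break anywhere between its highest mean of 21.0 ± 5.84 in the neuron IP and its lowest of 2.21 ± 0.326 in the astrocyte inputs. The share of all genes with such breaks was not counted.

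The make-up of the family turned over between the astrocyte and the neuron IP. In the astrocyte inputs, Grm5 was 51.7% ± 1.25 of the 6 genes' summed FPKM and Grm3 31.6% ± 0.667 (SD, n = 4). In the astrocyte IP, Grm3 was 69.6% ± 2.71 and Grm5 24.0% ± 2.45. In the neuron inputs, Grm5 was 47.3% ± 2.21 and Grm3 35.8% ± 1.28. In the neuron IP, Grm5 was 55.1% ± 2.97 and Grm3 29.7% ± 1.90. Among these groups, Grm3 was the larger share only in the astrocyte IP. The group III genes Grm4, Grm7 and Grm8 were 2.60%, 2.30% and 0.981% in the astrocyte IP and 5.01%, 3.63% and 2.93% in the neuron IP.

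**Figure D2:**
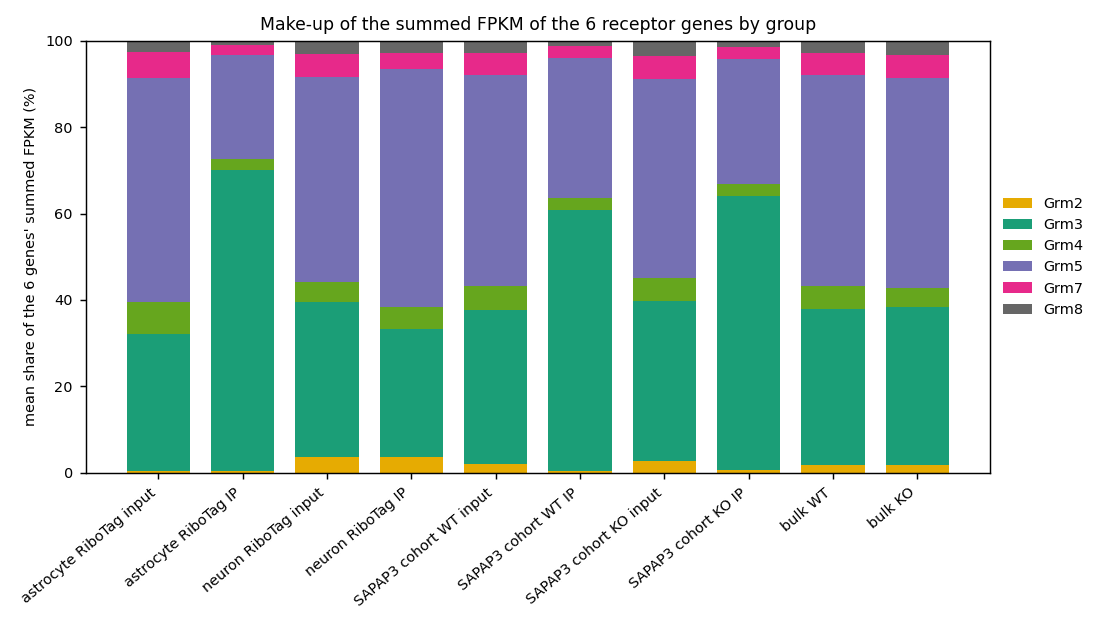
Mean share (vertical axis, percent) of each gene in the summed FPKM of the 6 receptor genes, by group of 4 libraries (horizontal axis). Grm3 fills 69.6% of the astrocyte RiboTag IP bar, and Grm5 fills 55.1% of the neuron RiboTag IP bar.

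The astrocyte RiboTag IP was compared with its input to find the receptors enriched on the ribosomes of astrocytes. Grm3 rose 3.09-fold, and Grm4 fell, with a 2.08-fold higher level in input. Grm5, Grm7 and Grm8 were also lower in IP, by less than the 2-fold limit, and Grm2 was higher by a small and uncertain amount. A gene was called at a Benjamini-Hochberg adjusted p under 0.05 with edgeR's quasi-likelihood test and a log2 fold change above 1 or below -1.

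Grm3 was at 177, 187, 196 and 176 CPM in the inputs of mice 1 to 4 and at 450.1, 551, 498 and 453 in their IP. Every IP library was above every input. The log2 fold change, after edgeR's TMM scaling of library sizes, was 1.63 (SE 0.068, edgeR adjusted p = 1.3e-09). Leaving out any library kept it between 1.57 and 1.68.

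Grm4, a group III receptor of projection neuron terminals, was at 87.5, 100.4, 91.7 and 84.0 CPM in the inputs and at 41.0, 35.5, 35.9 and 37.6 in IP. The ranges did not overlap, and the log2 fold change was -1.06 (SE 0.064, edgeR adjusted p = 3.1e-08). This value lies beside the limit of -1, and without the input of mouse 2, the highest, it no longer passed that limit. Grm8, a presynaptic group III receptor, was at 24.1, 22.4, 22.0 and 22.2 CPM in the inputs and at 8.89, 10.8, 9.42 and 10.5 in IP. Its log2 fold change of -0.98 (SE 0.070, edgeR adjusted p = 1.4e-07) stopped just short of the limit, and without the IP of mouse 2 it was -1.01 and called.

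Grm7, the most widely distributed presynaptic receptor of group III, was at 117 to 127 CPM in the inputs and at 54.8 to 57.7 in IP. The difference was -0.90 on the log2 scale (SE 0.035, edgeR adjusted p = 7.9e-10). Grm5 was at 764, 733, 826 and 716 CPM in the inputs and at 432, 394, 421 and 442 in IP. It differed by -0.63 (SE 0.054, edgeR adjusted p = 7.0e-07), the smallest fall among the 4 genes that were lower. Even so, Grm5 still had a level of 47.3 ± 2.33 FPKM in the astrocyte IP (SD, n = 4), second there to Grm3 with 138 ± 13.4. The 10 neuron markers also remained in that IP, with a median log2 fold change of -0.79 (-1.09 to 0.26). How much of the Grm5 level came from astrocytes was not tested.

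Grm2 was at 1.93, 2.57, 1.93 and 2.39 CPM in the inputs and at 2.14, 5.49, 2.29 and 2.82 in IP. The IP of mouse 2 stood well above the other 3, which overlapped the inputs. The log2 fold change of 0.75 (SE 0.29, edgeR adjusted p = 0.033) was 0.36 without that library (edgeR adjusted p = 0.058). Leaving out the input of mouse 1, 3 or 4 also took the adjusted p past the threshold, to 0.078, 0.077 and 0.052. The same IP library had the highest sum of 7 cortical excitatory neuron markers in its group, 269 CPM against 73.5, 121 and 177. In a fit that paired IP and input by mouse, the log2 fold change of Grm2 was 0.70 (SE 0.17, edgeR adjusted p = 0.0012).

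Of the 6 genes, 1 was called higher and 1 lower in the astrocyte IP. Over all 15476 genes tested, 13.4% were called higher and 13.5% lower, so neither count stands out from the background. By edgeR, 12614 of those genes had an unadjusted p under 0.05, so a low p-value was common in this comparison. With total counts as library sizes, which moved the median of all genes from -0.02 to -0.25, Grm7 and Grm8 were also called, at -1.12 and -1.20. Other cell types' markers moved with the IP. The 10 microglia markers fell from 850.2 to 1076 CPM in the inputs to 17.9 to 24.6, with 10 of 10 called lower, and the 5 cholinergic interneuron markers rose from 105 to 123 CPM to 407 to 435, with 4 of 5 called higher. None of those 5 was at 0 in any group, and their part in the receptor values was not tested.

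**Figure D3:**
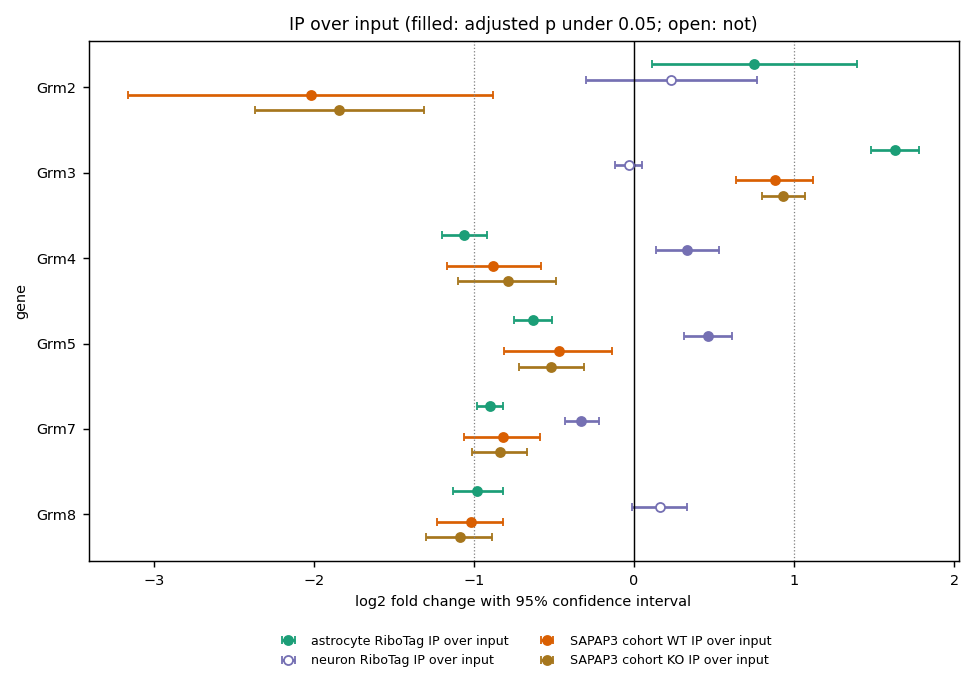
Log2 fold change of IP over input (horizontal axis) for each gene (vertical axis), with 95% confidence intervals from edgeR, in the 4 sets of RiboTag mice; filled points had an adjusted p under 0.05, and dotted lines mark -1 and 1. Grm3 lies at 1.63 in the astrocyte set and -0.03 in the neuron set, and Grm2 at -2.02 and -1.84 in the SAPAP3 cohort.

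In the neuron RiboTag mice no receptor gene was called in either direction. Grm5 and Grm4 were modestly higher in IP than in input, Grm7 was lower, and Grm2, Grm3 and Grm8 did not pass the test. The background was uneven, with 0.42% of 16198 genes called higher and 15.8% called lower (68 and 2567 genes). With total counts as library sizes these were 15 and 3105 genes, and without the input numbered 2 there were 104 higher. By edgeR, 11913 of the 16198 genes had an unadjusted p under 0.05. Of 10 neuron markers 3 were called higher, with a median log2 fold change of 0.70, and of 10 astrocyte markers 2 were called lower, with a median of -0.63 and a summed level of 1402 to 1783 CPM in IP against 2201 to 2409 in input. All 10 oligodendrocyte, 5 oligodendrocyte precursor and 10 microglia markers were called lower, and 3 of 5 cholinergic interneuron markers higher. Their part in the receptor values was not tested.

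Grm5 was at 678, 765, 695 and 707 CPM in the neuron inputs and at 823, 963, 778 and 839.5 in IP. Every IP library was above every input, and the log2 fold change was 0.46 (SE 0.066, edgeR adjusted p = 0.00012). Grm4 was at 57.9, 65.3, 58.4 and 50.8 CPM in the inputs and at 62.5, 70.3, 64.7 and 56.8 in IP, and the IP was higher than the input of the same number in all 4 pairs, although the ranges overlapped. Its log2 fold change was 0.33 (SE 0.087, edgeR adjusted p = 0.0058).

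Grm7 was at 107, 109, 122 and 109.9 CPM in the inputs and at 77.0, 79.8, 76.5 and 77.1 in IP, with no overlap. It changed by -0.33 (SE 0.046, edgeR adjusted p = 0.00011). Its direction was thus unlike that of Grm4 and Grm5, although all were lower in the astrocyte IP. Grm8 was at 24.0 to 30.5 CPM in the inputs and 24.4 to 27.4 in IP, and its log2 fold change of 0.16 (95% confidence interval -0.01 to 0.33) had an edgeR adjusted p of 0.092.

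Grm3 was at 223, 209, 213 and 210.2 CPM in the neuron inputs and at 189.0, 173, 178 and 184 in IP. The CPM ranges did not overlap, yet the log2 fold change after TMM scaling was -0.03 (interval -0.12 to 0.05, edgeR adjusted p = 0.46). With total counts as library sizes it was -0.24 (edgeR adjusted p = 0.00031). That scaling moved the median of all genes from -0.00 to -0.21, so Grm3 followed the bulk of genes. Grm8 changed sign under it, to -0.05, and Grm4 lost significance at 0.13 (edgeR adjusted p = 0.18). Grm2 was at 26.2, 15.8, 25.9 and 15.1 CPM in the inputs and at 23.9, 15.5, 27.8 and 16.9 in IP, high under numbers 1 and 3 in both fractions. The log2 fold change was 0.23 (interval -0.30 to 0.77, edgeR adjusted p = 0.41). In the fit with the replicate number as a block, Grm2 (0.23) and Grm8 (0.16) had edgeR adjusted p-values of 0.00094 and 0.0056.

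The enrichment in the 2 RiboTag populations was then compared directly, with an interaction term. Of the 6 genes, 5 differed, against 70.1% of the 16371 genes tested (11469 genes), so a difference of this kind was the rule in these libraries. Grm3 was 1.66 lower on the log2 scale in neuron than in astrocyte enrichment, at -1.66 (SE 0.083, edgeR adjusted p = 1.3e-11). The Gi/o-coupled Grm4 and Grm8 went the other way, at 1.39 (SE 0.12, edgeR adjusted p = 9.9e-09) and 1.13 (SE 0.11, edgeR adjusted p = 8.0e-08). Grm5 differed by 1.09 (SE 0.088) and Grm7 by 0.57 (SE 0.060), with edgeR adjusted p-values of 6.7e-09 and 2.0e-07. Grm2 differed by -0.52 (interval -1.44 to 0.40, edgeR adjusted p = 0.30), and with the replicate number as a block by -0.51 (edgeR adjusted p = 0.0096). The neuron mice had Xist counts and no counts of the 4 Y-linked genes, and the astrocyte mice had Y-linked counts and at most 1 Xist count, so sex, cohort and cell type cannot be told apart here.

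In the SAPAP3 cohort WT mice, Grm4, Grm5, Grm7 and Grm8 were lower in IP than in input, Grm3 was higher by less than in the astrocyte IP, and Grm2 was lower. Grm2 was called lower, as was Grm8, and none was called higher. Over 15587 genes, 12.1% were called lower and 10.9% higher, and 10942 had an unadjusted p under 0.05 by edgeR.

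Grm2 was at 2.30, 17.8, 12.8 and 15.9 CPM in the WT inputs of mice 1 to 4 and at 1.79, 3.75, 2.21 and 3.02 in their IP. The input of mouse 1 lay among the IP values, far below the other 3 inputs. The log2 fold change was -2.02 (SE 0.51, edgeR adjusted p = 0.0059), and -2.16 without both libraries of mouse 1 (edgeR adjusted p = 5.4e-05). Grm8 was at 23.1, 23.9, 28.6 and 25.5 CPM in the inputs and at 10.5, 11.3, 11.9 and 10.5 in IP, with no overlap. Its log2 fold change of -1.02 (SE 0.091, edgeR adjusted p = 9.4e-06) was -0.95 and not called without the input of mouse 3, the highest.

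Grm3 was at 204, 220.4, 255 and 212 CPM in the WT inputs and at 327, 369, 424 and 338 in IP. All IP libraries were above all inputs, at 0.88 on the log2 scale (SE 0.11, edgeR adjusted p = 6.6e-05), under the limit of 1. Grm4 differed by -0.88 (SE 0.13, edgeR adjusted p = 0.00026), and without the IP of mouse 1 it passed the limit. Grm7 differed by -0.82 (SE 0.10, edgeR adjusted p = 8.9e-05). Grm5 was at 948, 662, 769 and 727 CPM in the inputs and at 612, 455, 529 and 390.1 in IP, and differed by -0.47 (SE 0.15, edgeR adjusted p = 0.017).

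Set against the astrocyte RiboTag mice with an interaction term, 2 of the 6 genes differed in enrichment, where 20.5% of 16032 genes did (3280 genes). Both were group II. Grm3 was 0.73 less enriched in the SAPAP3 cohort WT mice, at -0.73 (SE 0.13, edgeR adjusted p = 0.0018). Grm2 differed by -2.75 (SE 0.65, edgeR adjusted p = 0.0086), and by -2.43 with limma-voom (adjusted p = 0.074). Its mean level was 2.7 ± 0.87 CPM in the SAPAP3 cohort WT IP and 3.2 ± 1.6 in the astrocyte IP (SD, n = 4). The inputs were further apart, at 12.2 ± 6.9 and 2.21 ± 0.326 CPM. Intervals for the others were -0.13 to 0.53 for Grm4, -0.18 to 0.53 for Grm5, -0.14 to 0.33 for Grm7 and -0.27 to 0.21 for Grm8. Strain, age and cohort differed between these mice too and cannot be told apart from one another. By the same interaction term, 6 of 10 astrocyte markers were called lower and 0 higher, with a median of -0.41. Of the 7 cortical excitatory neuron markers 5 were called lower and 0 higher, with a median of -2.64. Of the 10 oligodendrocyte markers 9 were called higher, with a median of 0.88. The latter were at 7182 to 10522 CPM in the SAPAP3 cohort WT IP, against 5826 to 6767 in its input and 3232 to 5518 in the astrocyte IP. The part of these markers was not tested.

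The SAPAP3 KO mice gave much the same picture between IP and input. Grm2 was at 14.4, 18.8, 17.9 and 9.68 CPM in the KO inputs and at 4.99, 3.80, 2.30 and 3.65 in IP, with no overlap. It was called lower at -1.84 (SE 0.24, edgeR adjusted p = 4.5e-05). Grm8 was called lower at -1.09 (SE 0.094, edgeR adjusted p = 2.0e-06), from 26.6 to 32.1 CPM in the inputs to 10.2 to 13.7 in IP.

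Grm3 was at 208, 209, 216 and 204 CPM in the KO inputs and at 336, 363, 360.2 and 326 in IP, at 0.93 (SE 0.062, edgeR adjusted p = 3.0e-07). Grm4, Grm7 and Grm5 were lower in IP by less than the limit, at -0.79, -0.84 and -0.52. In all, 2 of the 6 genes were called lower and 0 higher, where 11.5% and 12.3% of 15583 genes were. By edgeR, 11551 of those genes had an unadjusted p under 0.05.

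Across libraries, Grm2 moved with the summed level of the 7 cortical excitatory neuron markers, among them Slc17a7, Neurod2, Neurod6, Tbr1, Emx1 and Fezf2, none of which was at 0 in any library. The astrocyte inputs had 82.7 to 120 CPM of these markers beside 1.93 to 2.57 CPM of Grm2, and the neuron inputs 742 to 1008 CPM beside 15.1 to 26.2. Within the SAPAP3 cohort WT inputs, mouse 1 had 87.3 CPM of the markers and 2.30 of Grm2, and the other 3 had 606 to 778 and 12.8 to 17.8. In bulk WT striatum, mice 2 and 3 had 270.0 and 225 CPM of the markers and 3.94 and 4.24 of Grm2, and mice 1 and 4 had 1062 and 858 of the markers and 16.1 and 16.3 of Grm2. Within the SAPAP3 cohort KO inputs, Grm2 did not follow the markers. Mice 1 to 4 there had 889.9, 732, 841 and 819 CPM of the markers and 14.4, 18.8, 17.9 and 9.68 of Grm2.

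Grm4 and Grm5 were high in the low-marker libraries of the SAPAP3 cohort WT inputs and of bulk WT striatum. In the SAPAP3 cohort WT inputs, mouse 1 had 85.3 CPM of Grm4 against 63.1, 65.5 and 66.7 in the others, and 948 of Grm5 against 662 to 769. In bulk WT striatum, mice 2 and 3 had 79.0 and 94.8 CPM of Grm4 against 59.8 and 56.2, and 898 and 932 of Grm5 against 675 and 732. The astrocyte inputs, also low in the markers, had 84.0 to 100.4 CPM of Grm4, against 50.8 to 65.3 in the neuron inputs. For Grm5 these 2 groups overlapped, at 716 to 826 and 678 to 765 CPM. Grm8 went with the markers in bulk WT, at 23.1 and 17.3 CPM in mice 2 and 3 against 31.6 and 30.2. Grm3 showed no such split, at 223 to 247 CPM in the 4 bulk WT libraries. The markers also moved with the IP contrasts of Grm2. In the SAPAP3 cohort WT mice, 3 of 7 were called lower in IP and none higher, with a median log2 fold change of -1.80, and in the astrocyte RiboTag mice 2 of 7 were called higher and none lower, with a median of 0.96. Their part in the receptor values was not tested.

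**Figure D4:**
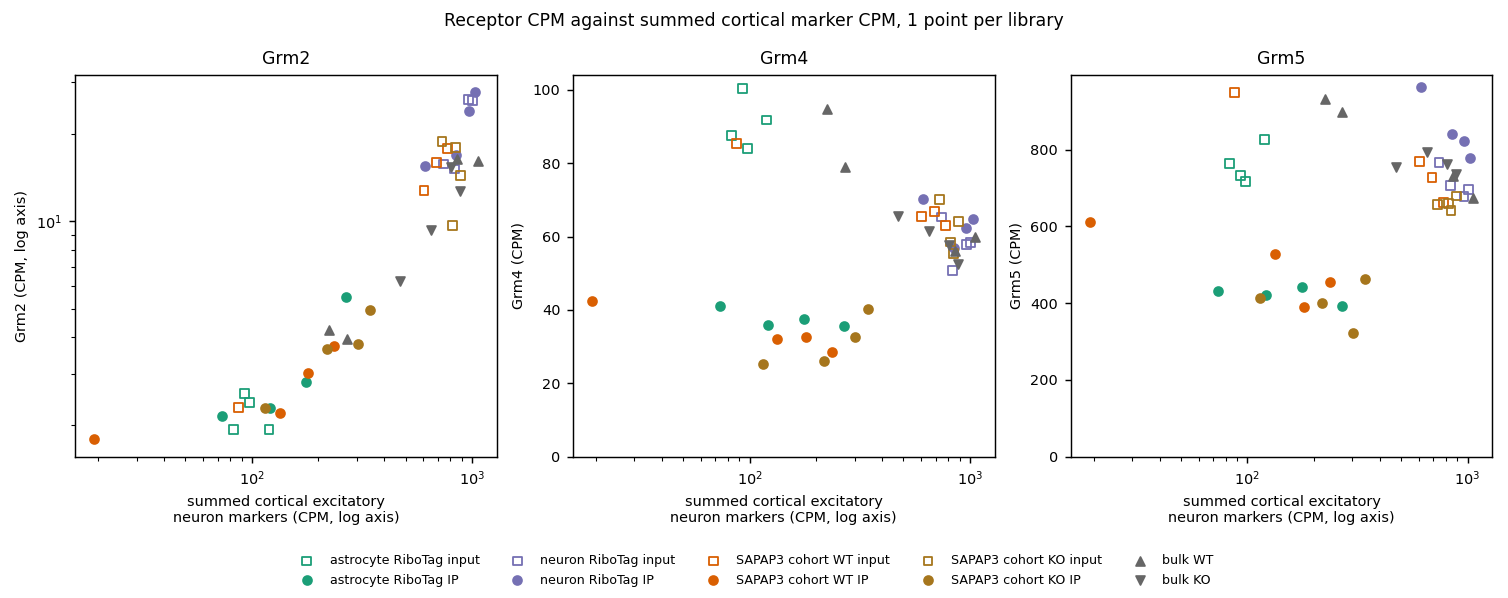
CPM of Grm2, Grm4 and Grm5 (vertical axes, logarithmic for Grm2) against the summed CPM of 7 cortical excitatory neuron markers (logarithmic horizontal axis), 1 point per library, with open squares for inputs, circles for IP and triangles for bulk. Over all libraries, Grm2 climbs with the markers, from 1.79 CPM at a marker sum of 19.3 to 27.8 CPM at 1031. Among inputs and bulk libraries, Grm4 is highest at low marker sums.

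The SAPAP3 KO mice were compared with WT mice to find changes from loss of the scaffold. None of the 6 genes passed the test in the inputs, the IP or bulk striatum, where 0.00641%, 0.0263% and 0% of the genes did (1 of 15591, 4 of 15198 and 0 of 16020). The bulk test thus also missed Dlgap3, at 144 to 161 CPM in bulk KO and 232 to 386 in bulk WT. Not passing in bulk therefore does not show that a gene was unchanged. At an unadjusted p under 0.05, edgeR had 869, 399 and 792 genes, and DESeq2 called 8, 8 and 17 at an adjusted p under 0.05, with no member among them. Leaving out 1 library moved the unadjusted counts to between 531 (without the input of KO mouse 4) and 1534 (without the input of WT mouse 3) in the inputs, between 194 (without the IP of WT mouse 1) and 696 (without the IP of KO mouse 1) in IP, and between 445 (without KO mouse 3) and 1208 (without WT mouse 4) in bulk.

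Grm5, whose protein is linked to SAPAP and SHANK scaffolds, was at 679, 656, 642 and 658 CPM in the KO inputs, against 948, 662, 769 and 727 in WT. The ranges overlapped, and the log2 fold change was -0.21 (interval -0.42 to 0.01, edgeR adjusted p = 0.73). In IP, KO libraries were at 463, 322, 413 and 400.1 CPM and WT libraries at 612, 455, 529 and 390.1, at -0.30 (interval -0.61 to 0.02, edgeR adjusted p = 1). With 1 library left out, the value ran from -0.27 to -0.11 in the inputs and from -0.39 to -0.18 in IP. WT mouse 1, the highest for Grm5 in both fractions, had the lowest cortical marker sum of WT in both, and its part was not tested. Bulk KO striatum was at 735 to 792 CPM and bulk WT at 675 to 932, at -0.11 (interval -0.33 to 0.12, edgeR adjusted p = 0.98). Bulk WT mouse 3, the highest for Grm5 and Grm4 and the lowest for Grm8, had 10787 Xist counts and 149 counts of the 4 Y-linked genes, where the 4 bulk KO libraries had at most 2 Xist counts and 13753 to 14535 Y-linked counts, so sex was not balanced in bulk. In the SAPAP3 cohort 1 of 4 WT and 1 of 4 KO mice had this Xist pattern. Without bulk WT mouse 3 the bulk log2 fold changes were -0.03 for Grm5, -0.15 for Grm4 and 0.01 for Grm8, against -0.11, -0.31 and 0.15 with it. That library also had the lowest cortical marker sum of bulk WT, 225 CPM, so sex and marker level cannot be told apart in it. Bulk WT mouse 2, with 0 Xist counts and a marker sum of 270 CPM, had 898 CPM of Grm5, 79.0 of Grm4 and 23.1 of Grm8. The lower bounds for Grm5 leave room for a fall of up to 0.61 in IP, and no difference was detected with 4 mice a group.

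Grm8 was at 29.2, 28.5, 32.1 and 26.6 CPM in the KO inputs against 23.1, 23.9, 28.6 and 25.5 in WT, with overlap. The log2 fold change of 0.23 (interval 0.03 to 0.43) had an edgeR p of 0.028 and an adjusted p of 0.73. It was 0.12 in IP (interval -0.10 to 0.34) and 0.15 in bulk (interval -0.25 to 0.55). Grm4 gave intervals of -0.37 to 0.08 in the inputs, -0.47 to 0.25 in IP and -0.66 to 0.04 in bulk.

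Grm3 had the narrowest intervals of the 2 group II genes, -0.24 to 0.11 in the inputs, -0.26 to 0.15 in IP and -0.21 to 0.07 in bulk. Grm7 had -0.21 to 0.08, -0.37 to 0.11 and -0.22 to 0.14. For Grm2 they were wide, -0.69 to 1.35, -0.13 to 1.07 and -1.08 to 1.22. Its input value of 0.33 was -0.01 without the input of WT mouse 1, and the bulk value of 0.07 was -0.18 without bulk WT mouse 3. The 7 cortical markers described above had median log2 fold changes of 0.55 in the inputs, 0.74 in IP and 0.06 in bulk between KO and WT, with none called, and their part was not tested. The interaction of genotype and IP gave none of the 6 genes and 0% of 16059 genes with edgeR (203 at an unadjusted p under 0.05, and 1 by DESeq2). That unadjusted count ran from 162 without the input of KO mouse 4 to 453 without the input of WT mouse 3, and was 561 with the replicate block.

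**Figure D5:**
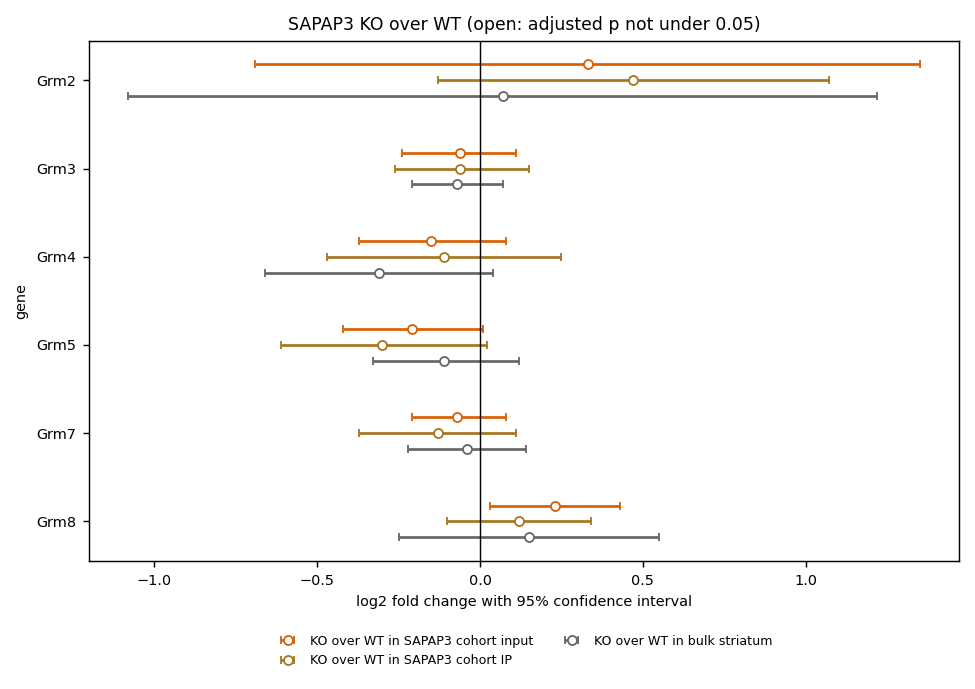
Log2 fold change of SAPAP3 KO over WT (horizontal axis) for each gene (vertical axis) with 95% confidence intervals from edgeR, in the SAPAP3 cohort inputs, its IP and bulk striatum; open points did not pass an adjusted p of 0.05. Intervals for Grm2 span -0.69 to 1.35 in the inputs, and those for Grm3 stay between -0.26 and 0.15.

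The partners of the receptors were followed with 59 genes in lists by role, of which 58 were tested. In the astrocyte IP, 11 were called higher and 7 lower, with a median log2 fold change of -0.26 against -0.02 over all genes, of which 13.4% were called higher and 13.5% lower. In the neuron IP, 0 were called higher and 2 lower, with a median of 0.19 against -0.00 over all genes, of which 0.42% were called higher and 15.8% lower. No gene of the lists passed the test between KO and WT in the inputs, the IP or bulk striatum.

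On the Gq side, 5 of 15 genes were called higher and 2 lower in the astrocyte IP, beside 13.4% and 13.5% of all genes. Plcb3, a phospholipase C that Gq activates, rose by 2.33 on the log2 scale (SE 0.039, edgeR adjusted p = 2.7e-12). Itpr3, an inositol trisphosphate receptor, changed by -2.44 (SE 0.15), and Plcb2 was the other gene called lower. In the neuron IP, 0 of 15 were called higher, and Itpr3 at -1.95 and Itpr2 at -1.33 were the 2 called lower.

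On the Gi/o side, 3 of 15 genes were called higher and 1 lower in the astrocyte IP, beside 13.4% and 13.5% of all genes. Adcy2, an adenylyl cyclase, rose by 1.94 (SE 0.056), and the G-protein subunits Gnao1 and Gnai2 by 1.28 (SE 0.048) and 1.19 (SE 0.037). Adcy5, the main adenylyl cyclase of striatal projection neurons, changed by -1.03 (SE 0.055). No gene of this list was called in the neuron IP.

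Among 15 scaffold and binding partners, 2 were called higher and 2 lower in the astrocyte IP, which is close to the 13.4% and 13.5% of all genes. The Homer genes encode proteins that bind Grm5, with Homer3 at 1.74 (SE 0.060), Homer2 at 1.04 (SE 0.066) and Homer1 at -1.02 (SE 0.064). Shank3 was at -1.07 (SE 0.040). Of 12 genes of desensitisation and regulation, Rgs12 was called higher at 1.21 (SE 0.033), and Rgs2 and Rgs8 lower at -1.05 and -1.02. None of either list was called in the neuron IP. Grm6, a group III receptor known from the retina, had at most 2 counts in any library.

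The genes whose pattern over the 40 libraries was most like a member's were found by Pearson's r of log2(CPM + 0.5), as a description only, since libraries of a mouse share tissue and the groups share cohort and depth. For Grm2 they were Rtn4r (0.978), Sidt1 (0.976) and Wnt9a (0.975), and for Grm3 they were Gfra1 (0.972), Ptn (0.972) and Ahcyl1 (0.969). Grm4 was closest to Syndig1l (0.985), Gng7 (0.982) and Fbxl16 (0.978), and Grm5 to Ano3 (0.971), Rasgef1b (0.969) and D3Bwg0562e (0.967). Grm7 was closest to Stx16 (0.981), C2cd5 (0.976) and Syt14 (0.976), and Grm8 to Syt7 (0.976), Cdkl2 (0.972) and Ptprj (0.972).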

How the data were processed

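RNA was measured in 40 striatal libraries. STAR, HTSeq and mm10 are named in the submitters' processing notes, and the authors deposited whole-number counts per gene symbol with no normalization. Annotation, strand setting and versions are not given in the sources used here, and labels and methods name different library kits and sequencers. The counts of the 4 Control IP libraries are identical to the study's 4 published astrocyte IP columns over 1104 genes. Depth was 23438112 to 84109800 counts per library.

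CPM used total counts, and FPKM the merged exon lengths of GRCm38.p6. Tests were edgeR 4.0.16 in R 4.3.3 (filterByExpr, TMM, glmQLFit, glmQLFTest), fitting only the compared groups, with Benjamini-Hochberg adjustment over all genes tested. Genotype and interaction comparisons had no fold limit. All 6 genes passed the filter in the 10 comparisons. Alternatives were RLE, total counts, limma-voom (limma 3.58.1), DESeq2 1.42.0, no filter, FPKM above 5 in 4 libraries, all 40 libraries in one fit, a replicate block, and each library left out; scripts were tested on simulated data. IP and input paired by animal, or in the neuron mice by title number, since labels there give different animals; each pair's deviations correlated at 0.248 or more. Within-group libraries differed beyond sampling noise (lowest chi-square per degree of freedom 3.72). P-values weigh a difference against the spread between these libraries, and the main fits did not use the pairing of IP and input.

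Members and lists were chosen with earlier results of these data known. All 6 members were named throughout. From each role list, up to 2 called genes with the highest and 2 with the lowest log2 fold change in the astrocyte or neuron IP were named, and for each member the 3 genes with the highest r, among those averaging 1 CPM or more. Some genes that these rules or lists name are not reported here.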

Additional observations from a re-analysis of the deposited data

Results flagged for a closer look

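In 4 of 60 sets of 4 libraries (6 genes in 10 groups), 1 library stood apart by Dixon's test at 95%, where chance gives about 1 in 20. Grm4 was at 85.3 CPM in the SAPAP3 cohort WT input of mouse 1, the library with the lowest cortical marker sum of its group. Grm7 was at 79.8 CPM in the neuron IP of mouse 2, against 76.5 to 77.1 in the others. Grm8 was at 24.1 CPM in the astrocyte input of mouse 1, against 22.0 to 22.4, and at 24.8 CPM in bulk KO mouse 2, against 29.9 to 30.7.

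Enrichment in IP differed between neuron and astrocyte RiboTag mice, by the interaction term in edgeR, for Grm3 (-1.66), Grm4 (1.39), Grm5 (1.09), Grm7 (0.57) and Grm8 (1.13), on the log2 scale as neuron minus astrocyte. It differed between the SAPAP3 cohort WT and the astrocyte RiboTag mice for Grm2 (-2.75) and Grm3 (-0.73), as SAPAP3 cohort minus astrocyte.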

How the results depend on the processing

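Grm3 in the astrocyte IP and the 5 differences between neuron and astrocyte enrichment kept their calls under every alternative and with every library left out. Requiring FPKM above 5 in 4 libraries, which tests fewer genes and often leaves out Grm2 and Grm8, gave 1702, 507, 1270 and 1422 genes called for IP over input in the astrocyte, neuron, SAPAP3 cohort WT and KO mice, 2 genes for KO over WT in IP and 7170 for neuron minus astrocyte. With it, 0 members were called in the SAPAP3 cohort WT mice, 1 in the KO mice and 1 for SAPAP3 cohort WT minus astrocyte, and Grm8 in the neuron mice was -0.02. Total counts as library sizes gave 4 members called in the astrocyte mice, -0.05 for Grm8 in the neuron mice and 0.0008 for Grm8 in SAPAP3 cohort WT minus astrocyte. It also took Grm4 in the SAPAP3 cohort WT mice and Grm7 in the KO mice past the limit, each at -1.05. All 40 libraries in one fit gave 1 member in the astrocyte and 1 in the SAPAP3 cohort WT mice, and 8, 18 and 1 genes for KO over WT in inputs, in bulk and for KO minus WT enrichment. DESeq2 gave 8, 8, 17 and 1 genes for KO over WT in inputs, IP and bulk and for KO minus WT enrichment. No filter gave 1 member in the SAPAP3 cohort WT mice. With limma-voom 1 member was called for SAPAP3 cohort WT minus astrocyte, and Grm2 in KO minus WT enrichment was -0.10. The cause was not tested for these.

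The paired fit, with the replicate block, raised SAPAP3 cohort WT minus astrocyte from 3280 to 4980 genes, and gave Grm2, Grm8 and the Grm2 difference in the neuron mice the adjusted p-values printed with them; it changed no other call on the 6 genes. No paired fit was made for KO over WT, where the labels tie only 1 WT to 1 KO library, bulk libraries 1 of each genotype, by a shared animal identifier; without either of them 0 of the 6 genes were called. Leaving out 1 library, members called ran from 1 (without the astrocyte input of mouse 2) to 3 (without the IP of mouse 2) in the astrocyte mice, and from 1 (without the input of mouse 3) to 3 (without the IP of mouse 1) in the SAPAP3 cohort WT mice. Genes called for KO over WT ran from 0 to 1 in inputs, 0 to 3 in IP and 0 to 1 in bulk. Among log2 fold changes that did not pass and changed sign, KO over WT in inputs ran from -0.01 to 0.56 for Grm2 and -0.11 to 0.02 for Grm3. In IP it ran from -0.11 to 0.03 for Grm3 and -0.25 to 0.02 for Grm4, and in bulk from -0.20 to 0.40 for Grm2 and -0.11 to 0.02 for Grm7. Grm8 in SAPAP3 cohort WT minus astrocyte ran from -0.11 to 0.04. KO minus WT enrichment ran from -0.08 to 0.48 for Grm2, -0.05 to 0.09 for Grm3, -0.10 to 0.15 for Grm4 and -0.18 to 0.01 for Grm5. Depth limits Grm2 most, with 48 to 253 counts per library in the astrocyte mice, and 4 mice a group limit the KO comparisons. Leaving out both libraries of SAPAP3 cohort WT mouse 1 was chosen after seeing the data.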
